A study of Mus musculus with 12 samples.

Results

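Tags that carry one A beyond a stretch of a miRNA hairpin were described in small RNA libraries from the mouse hippocampus. A tag is a distinct insert sequence with the number of reads that carried it. A tag of at least 19 nt was taken as A-added when it matched no annotated hairpin over its whole length, matched one exactly without its last base, and ended in A. The exact remainder is called the parent of the tag. Arms of hairpins were kept when 1000 or more counts matched them exactly over all libraries, so the members were chosen by their measured counts, and the tail itself was part of the rule. This left 236 of the 1652 arms with an exact count. They held 2213 distinct A-added tags, against 1846 with an added U, 1536 with an added C and 1259 with an added G. All shares are percent of the exact plus one-base-added counts of an arm.

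The 12 libraries came from the hippocampus of individual male mice of strain C57BL/6NCrl, with no transgene in any group. NT-1 and NT-2 were made from untreated mice. The others, 2 for each time, followed electroconvulsive shock (ECS), a current that depolarizes neurons throughout the brain, by 0.5 h, 1 h, 3 h, 6 h or 24 h. Suffix -1 marks the first time course and suffix -2 the second, which was sequenced later as a biological replicate, and the study describes a batch effect between them. Age is not in the labels.

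MiRNAs guide the RNA-induced silencing complex to mRNAs, mainly through the seed, nucleotides 2 to 8 from the 5′ end. After Dicer has cut the hairpin, terminal nucleotidyl transferases can add bases that the gene does not encode to the 3′ end. GLD2 and PAPD5 mainly add A, whereas TUT4 and TUT7 mainly add U. An added A leaves the seed as it was, and it has been tied to miRNA stability for some miRNAs. The enzymes themselves are mRNA products and were not measured in these libraries.

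The most abundant A-added tag is shown for the arms on which the results turn. The seed and the added A are in capitals, and T stands for U as in the deposited tags. The first 5 are from the 5 arms with the highest mean A-added share, the next 3 share a seed and had the smallest p-values between the time courses, and the last 5 belong to abundant arms or to miRNAs known for terminal additions.
miR-134-5p: tGTGACTGgttgaccagagA
miR-330-5p: tCTCTGGGcctgtgtcttaggcA
miR-125b-3p: aCAAGTCAggttcttgggacA
miR-488-3p: tTGAAAGGctgtttcttggtA
miR-126a-3p: cGTACCGTgagtaataatgcgA
miR-30a-5p: tGTAAACAtcctcgactggaagA
miR-30d-5p: tGTAAACAtccccgactggaagA
miR-30e-5p: tGTAAACAtccttgactggaagA
let-7f-5p: tGAGGTAGtagattgtatagttA
miR-128-3p: tCACAGTGaaccggtctctttA
miR-101a-3p: tACAGTACtgtgataactgaaA
miR-124-3p: tAAGGCACgcggtgaatgA
miR-26a-5p: tTCAAGTAatccaggataggcA

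On GRCm38, Mir134 lies at chr12:109734139-109734209 on the plus strand, within an exon of the noncoding gene Mirg. Mir330 lies at chr7:19181465-19181562 (plus strand), in an exon of Eml2. Mir488 lies in an intron of Astn1 (chr1:158505625-158505733, plus strand), and Mir126a overlaps an exon of Egfl7 (chr2:26591357-26591429, plus strand). Mir30a lies at chr1:23272269-23272339 (plus strand) outside annotated genes of that strand, Mir30d at chr15:68341208-68341289 (minus strand) in an exon of the noncoding gene Gm20732, and Mir30e at chr4:120772606-120772697 (minus strand) in an intron of Nfyc. None of the 13 tags matched the hairpin of another miRNA without at least 2 differences. The hairpin base that follows the parent is not A in any of them, since a tag continued by a hairpin A counts as an exact match.

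Summed over the 236 arms, 3.44% ± 0.956 (SD, n = 12) of the counts carried one added A. The counts behind each share ran from 497434 in 6h-1 to 4558628 in NT-2. In the first time course the share was lowest in NT-1 at 1.62% (Wilson 95% interval 1.59% to 1.64%), had a median of 3.71% and was highest in 3h-1 at 3.98% (3.95% to 4.01%). In the second it was lowest in 6h-2 at 2.33% (2.30% to 2.35%), had a median of 3.45% and was highest in 0.5h-2 at 5.26% (5.24% to 5.28%). The libraries of the time courses overlapped. Since PCR copies of a molecule cannot be recognised here, these intervals cover counting error only.

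An added C or G by the same rule shows how often a last base differs from the hairpin without being A or U. C was added to 0.728% ± 0.634 and G to 0.534% ± 0.117 of the counts (SD, n = 12). The A-added share exceeded the mean of the C-added and G-added shares in 12 of 12 libraries, by 2.81 percentage points (lowest 1.19, highest 4.84). The exact permutation test of all flips within libraries gave a two-sided p of 0.000488, the smallest it allows, and 0.00244 after Benjamini-Hochberg adjustment over 5 tests. Changes to A inside exact tags, at positions 10 to 14, made up 0.637% ± 0.386 of the reads per position in the first time course and 0.160% ± 0.0394 in the second (SD, n = 6). Their part in the A-added share was not tested.

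U was added to 3.52% ± 1.28 of the counts (SD, n = 12), and the A-added share differed from it by -0.0806 points (exact permutation test, two-sided, p = 0.878, adjusted p = 0.878). The shares differed in direction between the time courses. A was below U in 4 of 6 libraries of the first, with means of 3.29% and 4.41%, and above U in 6 of 6 of the second, with 3.58% and 2.62%. The comparison depends on which ends can show an addition, because a hairpin base of the same kind hides it. The next hairpin base was U after 61.2% of the exact counts and A after 14.7%. With only ends at which each addition could be seen, the difference of A from U was -2.76 points (exact permutation p = 0.00146), and with parents of 20 nt or more it was 1.31 points (exact permutation p = 0.00146).

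Among the 236 arms the mean A-added share over libraries had a median of 3.51%, with quartiles of 2.14% and 6.34% and a highest value of 30.5%. It exceeded 10% in 25 arms and 5% in 83, and lay under 1% in 10. It was higher than the mean U-added share of the same arm in 136 arms, than the C-added share in 215 and than the G-added share in 229. The corresponding medians were 3.25% for U, 0.887% for C and 0.345% for G. Across arms the A-added share had a rank correlation of 0.27 with the U-added share, of -0.02 with the C-added share and of 0.04 with the exact counts on a log scale. These are descriptions across 236 arms that share libraries and base composition. The arms just inside the limit of 1000 exact counts were miR-342-5p with 1036 and miR-146-5p with 1008. Over all libraries their A-added shares were 2.36% and 6.37%. Just outside were miR-135a-5p with 997 exact counts and 0.774%, and miR-1298-3p with 996 and 1.04%.

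The highest mean share belonged to miR-134-5p, a neuronal miRNA of the Dlk1-Dio3 locus that acts at dendritic spines. The share had a mean of 30.5% ± 12.2 over the libraries (SD, n = 12). Within the first time course it was lowest at 10.3%, had a median of 24.4% and was highest at 39.0%. In the second these values were 32.5%, 34.9% and 55.6%. One tag, shown above, held 66.3% of its A-added counts and was more abundant than its own parent, with 2297 against 1874 counts. The parent ends 3 bases before the RefSeq mature sequence. With parents of 20 nt or more the mean share of miR-134-5p was 16.3%, under those of miR-125b-3p (26.1%), miR-330-5p (24.3%), miR-488-3p (23.2%), miR-329-5p (17.7%) and miR-490-3p (17.5%), so its first rank rested on the shorter parents.

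The next arms were miR-330-5p with 27.1% ± 13.7, miR-125b-3p with 26.9% ± 12.6, the passenger arm of an abundant neural miRNA, miR-488-3p with 23.1% ± 16.1 and miR-126a-3p, an endothelial miRNA, with 17.6% ± 4.45 (SD, n = 12). For miR-126a-3p the values spread least, from 10.4% in 24h-1 to 25.3% in 0.5h-2, and the time courses overlapped. Its other arm, miR-126a-5p, averaged 11.96% ± 6.90. Counts were low for some of these arms. A single library held as few as 29 counts of miR-330-5p and 40 of miR-126a-3p, and miR-490-3p (17.5% ± 16.0) and miR-329-5p (17.2% ± 10.9) had libraries with 3 and 11.

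The other arms among the 20 with the highest shares averaged between 11.1% and 14.7%. They were miR-879-5p, miR-151-3p, miR-146b-5p, miR-666-5p, miR-101c-3p, miR-30d-5p, miR-378a-3p, miR-541-5p, miR-760-3p, miR-323-3p, miR-186-5p and miR-195a-5p. The tag of miR-101c-3p differs at 1 base from the hairpin of miR-101a, so its counts cannot be told apart from changed miR-101a tags. Of the 20 arms, 5 lie on chromosome 12 (miR-134-5p, miR-329-5p, miR-666-5p, miR-541-5p and miR-323-3p). The 53 arms from that chromosome had a median of 3.57%, close to that of all arms. For miR-541-5p the mean of 12.2% ± 17.4 (SD, n = 12) rested on 3h-1, where 1 tag made up 66.5% of the arm. Without 3h-1 every library lay between 1.42% and 10.2%. With parents of 20 nt or more the mean share of miR-760-3p was 6.31%.

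The 10 arms with the most exact counts had mean shares between 1.62% and 6.46%, beside the median of 3.51% over all arms. The let-7 miRNAs, which repress growth and proliferation genes, made up 4 of the 10. Of these, let-7f-5p averaged 2.50% ± 1.39, let-7g-5p 2.11% ± 1.41, let-7c-5p 2.70% ± 1.07 and let-7a-5p 2.60% ± 1.67 (SD, n = 12). For let-7f-5p the first time course ran from 0.639% in NT-1 over a median of 3.08% to 3.88%, and the second from 0.904% in NT-2 over 2.08% to 4.99%. Among the other 6, miR-29a-3p averaged 1.62% ± 1.13, miR-128-3p 3.69% ± 1.57, miR-124-3p 3.72% ± 0.922, miR-1839-5p 4.27% ± 2.19, miR-143-3p 4.34% ± 1.22 and miR-101a-3p 6.46% ± 5.21. For miR-124-3p, miR-101a-3p and miR-143-3p many ends cannot show an added A, since the next hairpin base is A after 59.7%, 77.7% and 35.4% of their exact counts. At ends where it can be seen the mean shares were 7.25%, 18.1% and 6.67%. The most abundant A-added tag of miR-124-3p, shown above, has a parent of 18 nt and outnumbered it, with 20753 against 15186 counts. With parents of 20 nt or more the mean share of miR-124-3p was 0.863%.

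The lowest shares were 0 in miR-3473e-5p, 0.591% in miR-3473b-3p, 0.592% in miR-144-5p, 0.609% in miR-135a-3p and 0.631% in miR-328-5p. With ends not followed by A, the mean share of miR-135a-3p was 1.80%, since the next hairpin base was A after 84.3% of its exact counts. No A-added count was found among 3792 counts of miR-3473e-5p, of which 2382 came from 3h-1. As a share of all these counts this allows up to 0.0791%. The next hairpin base was A after 96.3% of its exact counts, so few of its ends could show an addition. The bound therefore does not hold for those ends alone. In 1 library, 6h-2, no count of miR-3473e-5p was found.

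The place of the addition was compared with the annotated 3′ end for 187 arms with a RefSeq mature sequence. Of the A-added counts, 43.2% had a parent that ended exactly at the mature end, 18.3% one that ended 1 base before it and 14.3% one that ended 2 bases before it. The exact counts divided as 36.7%, 19.5% and 29.9%. The U-added counts were spread further upstream, with 19.4% at the mature end and 23.7% at 3 bases before it. All ends were used here, and a hairpin base of the same kind hides an addition. Over all 236 arms the next hairpin base was U after 61.2% of the exact counts and A after 14.7%. The most abundant exact tag of the arm was the parent of 38.8% of all A-added counts.

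The last base of the parent went with the share, when only ends not followed by a hairpin A were counted. Parents ending in C had a mean A-added share of 9.56% ± 4.79, parents ending in A 7.88% ± 2.38, in G 4.81% ± 2.09 and in U 2.66% ± 0.943 (SD, n = 12). Parents ending in C had the highest share of the 4 in 8 libraries, and those ending in U in none. Parents ending in G held 6.52% ± 1.35 in the first and 3.11% ± 0.899 in the second time course (SD, n = 6), while those ending in C held 6.86% ± 2.55 and 12.3% ± 5.14. By length, parents of 18 nt held 21.9% ± 5.55 and parents of 19 nt 10.1% ± 3.43 (SD, n = 12). Those of 20 nt held 2.53% ± 1.497, those of 21 nt 5.92% ± 2.96 and those of 22 nt 3.25% ± 1.96. Exact tags of 18 and 19 nt were unevenly spread, at 51.3% of the exact counts in NT-1, 4.52% to 16.9% in the other libraries of the first time course and 0.906% to 3.77% in the second.

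Whether the A-added share differed between the time courses was tested first on the pooled share and then arm by arm. The pooled share differed by 0.284 points (second minus first, higher at 4 of 6 time points, exact permutation test of 64 flips, two-sided, p = 0.656, adjusted p = 0.820, with 0.031 as the smallest p possible). The same difference was -1.79 points for an added U (exact permutation test, unadjusted p = 0.0625), -0.869 points for C, which was lower at 6 of 6 time points (unadjusted p = 0.031), and 0.0931 points for G (unadjusted p = 0.281). Arm by arm, A-added and exact counts entered edgeR's quasi-likelihood test as paired columns of each library, so that the fold is that of the ratio of A-added to exact counts. Of 205 arms with at least 10 A-added counts in at least 2 libraries, 34 (16.6%) were higher and 6 (2.93%) lower in the second time course, with Benjamini-Hochberg adjusted p under 0.05. The other 31 arms had too few A-added counts to be tested. Since this filter reads the A-added counts themselves, an arm could enter through the time course in which it was high, so the counts and medians over tested arms are descriptions. Called miR-135a-3p, for example, had 3 A-added counts in the first time course and 120 in the second. With ends not followed by A its log2 ratio was -0.27 (edgeR adjusted p = 0.988). Without the filter 39 of 235 arms were higher and 7 lower. With TMM factors over all columns 22 were higher and 26 lower, since this scaling moved the median log2 ratio over arms from 0.30 to -0.17. How many arms went each way thus depended on the scaling, although none of the 40 arms changed sign with it. With ends not followed by A, 35 of the 40 were still called and 2 had the opposite sign. Of the 40, 18 were called in every alternative fit and 24 with any single library left out. Since the fit has a term for each time point, leaving out either library of a time gave nearly the same result.

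The smallest p-values were those of 3 arms of the miR-30 family, which share the seed GTAAACA and are broadly expressed. For miR-30d-5p the A-added share in the first time course was lowest at 0.366%, had a median of 1.09% and was highest at 3.62%. In the second it was lowest at 15.2%, had a median of 22.6% and was highest at 29.4%, so the groups did not overlap. The log2 ratio was 4.54 (standard error 0.46, edgeR adjusted p = 1.41e-08). For miR-30a-5p the medians were 0.869% and 12.5% (log2 ratio 3.76, standard error 0.43, edgeR adjusted p = 8.90e-08), with the highest value of the first time course, 3.60%, under the lowest of the second, 8.43%. For miR-30e-5p they were 1.54% and 17.5% (log2 ratio 4.08, standard error 0.47, edgeR adjusted p = 9.58e-08). All 3 were higher in the second time course at 6 of 6 time points and were called in each of the 19 alternative fits. With ends not followed by A the log2 ratios were smaller, at 2.82 for miR-30d-5p, 2.06 for miR-30a-5p and 1.75 for miR-30e-5p.

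In these 3 arms most A-added counts of the second time course lay at a single end. The forms of miR-30a-5p that end at or next to it are shown with the seed and any added A in capitals.
miR-30a-5p, 21 nt: tGTAAACAtcctcgactggaa
miR-30a-5p, 22 nt: tGTAAACAtcctcgactggaag
miR-30a-5p, 22 nt with A: tGTAAACAtcctcgactggaagA
miR-30a-5p, 23 nt: tGTAAACAtcctcgactggaagc
The 22 nt form had 10637 counts in the first time course and 1002 in the second, whereas the same form with an added A had 122 and 14915. As a share of the arm, the A-added form went from a median of 0.128% (highest 0.261%) to one of 9.42% (lowest 5.34%), and the 22 nt form went from a median of 4.73% to 0.740%. The exact 23 nt form, which ends in the C encoded by the hairpin, had 471 counts in the first and 40078 in the second. The 21 nt form had 17098 and 37379. As a share of the arm the 23 nt form went from a median of 0.554% to 27.7%, and the 19 nt form, 8.55% to 67.5% in the first time course, was at 0.926% to 5.64% in the second. The part of this length difference in the A-added share was not tested.

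The same end was seen in the sister miRNAs. For miR-30d-5p the 22 nt form had 2015 and 107 counts in the 2 time courses, and with an added A 84 and 5449. In the second time course between 95.5% and 97.2% of the counts of this parent, exact or with one added base, carried the A. For miR-30e-5p the 22 nt form had 419 and 16 counts and with A 29 and 1799. None of the other 4 miR-30 arms passed the test, and their mean shares lay between 2.00% and 5.11%.

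Besides these, miR-488-3p was higher in the second time course, from a first range of 1.40% to 20.98% (median 5.15%) to a second one of 29.8% to 43.2% (median 37.4%; log2 ratio 3.15, standard error 0.51, edgeR adjusted p = 3.80e-05). The groups did not overlap. For miR-1224-5p, a miRNA cut from a short intron of Vwa5b2, the ranges were 1.07% to 6.49% and 12.2% to 21.1% (log2 ratio 2.72, standard error 0.47, edgeR adjusted p = 8.86e-05). With ends not followed by A its log2 ratio was 1.21 (edgeR adjusted p = 0.0447), and with parents of 20 nt or more 1.80. Among the arms lower in the second time course, miR-320-3p went from a median of 3.34% (0 to 6.67%) to one of 0.414% (0.295% to 1.15%), with a log2 ratio of -2.62 (standard error 0.54, edgeR adjusted p = 0.00066). NT-1, at 0, lay under all libraries of the second time course. The others were miR-9-3p (log2 ratio -2.36), miR-433-3p (-1.48), miR-674-5p (-1.92), miR-221-5p (-1.32) and let-7b-5p (-1.19). With ends not followed by A, miR-9-3p and miR-674-5p were no longer called (log2 ratios -0.74 and -1.27, edgeR adjusted p = 0.403 and 0.0913). With parents of 20 nt or more, 65 arms were higher and 4 lower, and 4 of the 6 lower arms, miR-433-3p, miR-674-5p, miR-221-5p and let-7b-5p, were not called, at log2 ratios of 0.04, -0.25, -0.69 and -0.46. The call of miR-433-3p was also lost without a 1 h library, and that of miR-221-5p without a 1 h, 3 h or 6 h library.

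The families listed are given beside the 16.6% of all arms tested that were higher and the 2.93% that were lower. In the miR-30 family 3 of 7 arms were higher and none lower, with a median log2 ratio of 1.32 against 0.30 over all arms tested. In the miR-99, miR-100 and miR-125 families 3 of 7 were higher and none lower (median 1.27). These were miR-125b-3p, from a median of 12.9% to 37.0%, miR-125b-5p, from 1.67% to 4.91%, and miR-99b-5p, from 3.80% to 8.77%. Both miR-101a-3p, from 2.24% to 9.94%, and miR-101b-3p, from 3.04% to 6.47%, were higher. With ends not followed by A the log2 ratio of miR-101b-3p was -0.10 (edgeR adjusted p = 0.94), against 1.53 for miR-101a-3p (edgeR adjusted p = 0.0135). With TMM factors miR-99b-5p and miR-101b-3p were not called (edgeR adjusted p = 0.0736 and 0.0913), and miR-101b-3p was called in 6 of the 12 fits without 1 library. Of the 9 let-7 arms, including miR-98-5p, 1 was lower (let-7b-5p) and none higher, with a median log2 ratio of -0.84. The call of let-7b-5p held in 8 of 19 alternative fits. None of the 3 miR-29 arms or the 4 tested of 5 miR-181 arms passed. The miR-29 arms had a median share of 1.62% and the miR-181 arms one of 5.71%, beside 3.51% over all 236.

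The list of miRNAs named for neurons held 14 arms, of which both miR-219a arms are also among the oligodendrocyte markers. Of the 14, 5 had a mean share above the median of all arms, and neither miR-219a arm was one of them. Besides miR-134-5p these were miR-212-3p (9.88% ± 4.30), an activity-regulated miRNA, miR-138-5p (9.77% ± 5.24), which acts at dendritic spines, miR-124-3p and miR-128-3p. Of the 14, 3 were higher in the second time course (miR-134-5p, miR-138-5p and miR-128-3p) and miR-9-3p was lower. For miR-128-3p, highly expressed in neurons, the groups did not overlap, with 1.40% to 3.54% in the first and 4.57% to 5.75% in the second time course (log2 ratio 1.20, standard error 0.40, edgeR adjusted p = 0.0294). The higher calls of these 3 arms were lost with TMM factors (log2 ratios 0.78, 0.79 and 0.76). They held in 2, 4 and 4 of the 12 fits without 1 library. Leaving out either library of a time gave nearly the same fit, so these 12 are not independent. The miR-132 arms, from the same cluster as miR-212, averaged 1.85% for miR-132-3p and 1.92% for miR-132-5p.

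The neuron markers miR-124, miR-9 and miR-128 made up 5.83% to 30.5% of the exact counts (median 12.6%). The oligodendrocyte markers made up 0.272% to 1.82%, blood markers 0.0368% to 1.16%, markers of vessels 0.565% to 14.5% and muscle markers 0.259% to 1.69%. In bulk tissue, more cells of a type and more RNA per cell cannot be told apart. All 5 arms of the vessel markers had a mean A-added share above the median of all arms (median 10.7%), and 2 of these 5 were higher in the second time course. So were 2 of the 3 tested blood marker arms, 1 of the 2 muscle marker arms, 1 of the 5 neuron marker arms and none of the 3 oligodendrocyte marker arms, beside 16.6% of all arms tested. The called blood arms were miR-486-5p, with its most abundant A-added tag shared by 2 arms, and miR-144-3p, without a fit at parents of 20 nt or more. The arm miR-3107-5p had nearly the same log2 ratio as miR-486-5p (2.01 and 2.02), and the 34 higher arms count both. With TMM factors miR-486-5p, miR-144-3p and miR-206-3p of muscle were not called (edgeR adjusted p = 0.0666, 0.0736 and 0.055). The vessel arms miR-126a-5p and miR-145a-3p still were. Blood markers had a median share of 2.73%, muscle markers one of 2.98% and oligodendrocyte markers one of 1.99%. The part of cell composition in the pooled share was not tested.

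The 4 arms of miRNAs listed as substrates of terminal transferases from work in other cells were all measured. GLD2 adds A to miR-122, PAPD5 adds A to miR-21, and TUT4 adds U to miR-26a. The A-added share averaged 2.55% ± 2.22 for miR-21a-5p, 2.82% ± 2.71 for miR-122-5p, 5.42% ± 1.49 for miR-26a-5p and 6.14% ± 1.49 for miR-26b-5p (SD, n = 12), beside the median of 3.51% over arms. For miR-26a-5p the mean U-added share was 4.74%. None of the 4 passed the test between the time courses.

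Whether ECS changed the A-added share was asked within each time course. The 2 libraries (-1 and -2) held 1.62% and 2.95% without treatment. After 0.5 h they held 2.79% and 5.26%, and after 1 h 3.49% and 3.89%. The 3 h libraries held 3.98% and 4.03%, those taken after 6 h 3.95% and 2.33%, and those after 24 h 3.94% and 3.02%. Libraries after ECS lay above the untreated one in 5 of 5 cases in the first time course and 4 of 5 in the second, where 6h-2 was lower. The mean difference was 1.38 points, from 2.01 in the first and 0.749 in the second. The exact permutation test over the 36 choices of one library per time course as untreated gave a two-sided p of 0.139 (adjusted p = 0.231, the smallest p possible being 0.0278). Without 6h-2 the exact permutation p was 0.0333 before adjustment. With any other ECS library left out it was 0.0667 to 0.167. Without NT-1 the difference was 0.749 points. NT-1, the reference of the first time course, was also the library with 51.3% of its exact counts at 18 or 19 nt, and the part of this in the difference was not tested.

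Arm by arm, the quasi-likelihood test of edgeR called 0 of 205 (0%) for each time after shock, at the same adjusted threshold. Before adjustment, p lay under 0.05 for 3 arms at 0.5 h, 0 at 1 h, 5 after 3 h, 4 after 6 h and 1 after 24 h. DESeq2 called 0 for each of the 5 times, and so did edgeR with the time course as a replicate block. In the block fit the arms under 0.05 before adjustment numbered 11, 5, 16, 12 and 11 of 205 in order of time. With no difference at all, a proportion of 0.05 of the 205 arms is expected under this limit. Each group held 2 libraries, and the groups shared one estimate of the spread from all 12 libraries. Without the block this spread includes the difference between the time courses. A difference within the spread was not detectable.

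The side of the hairpin was compared within libraries. Arms on the 3′ side, of which there were 115, had a pooled A-added share of 4.12% ± 1.29, and the 121 on the 5′ side one of 3.15% ± 1.20 (SD, n = 12). The difference of 0.970 points was positive in 8 of 12 libraries (exact permutation test of all flips within libraries, two-sided, p = 0.0503, adjusted p = 0.126). It had means of 3.19% and 3.45% for the 3′ and 5′ sides in the first time course and of 5.05% and 2.84% in the second, where the 3′ side was higher in 6 of 6 libraries. With ends not followed by A the difference was 2.33 points (exact permutation p = 0.000977), and with the median over arms it was -0.0976 points (p = 0.625). Leaving out 1h-1, 3h-1, 6h-1 or 24h-1 gave differences of 1.09, 1.10, 1.14 and 1.10 points, with unadjusted exact permutation p of 0.042, 0.041, 0.0322 and 0.041. Without NT-1 or 0.5h-1 the unadjusted exact permutation p was 0.0527 and 0.0605. Without any 1 library of the second time course it was 0.0615 to 0.101.

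How far the ranking of arms held between libraries was described for the 119 arms that reached 100 counts in each library. The rank correlation of their A-added shares averaged 0.87 over pairs of libraries within the second time course (0.76 to 0.94). It averaged 0.56 within the first (0.32 to 0.86) and 0.44 between the time courses (0.22 to 0.82). At one time point the 6 pairs of different time courses averaged 0.43. The points share their arms, and the libraries differ in depth.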

How the data were processed

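Total RNA from the hippocampus was size-selected and sequenced as small RNA on an Illumina GA IIx. The authors deposited 1 table per library of trimmed tags of at least 18 nt with raw read counts, made with their miR-Intess pipeline. Tags were matched to GENCODE M21 (GRCm38) miRNA hairpins, exactly or without the last base, and each tag went to the 5′ or 3′ arm. The counts of a tag of several arms (2.54% of A-added counts) were divided equally among these arms. Accepted reads ran from 1897490 to 7657222 per library, and the number of counts limits the precision of a share.

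Pooled shares were tested with exact permutations within libraries, time points or time courses, two-sided, with Benjamini-Hochberg adjustment over 5 tests. Arms with at least 10 A-added counts in at least 2 libraries were tested with edgeR 4.0.16 (quasi-likelihood) on A-added and exact counts, all 12 libraries in 1 fit, and with DESeq2 1.42.0 as an alternative (R 4.3.3). The p threshold was an adjusted 0.05. P-values set a difference against the spread between these libraries. With only a first and a second time course, those between them do not cover how such time courses vary.

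Same-numbered libraries of different time points deviated together from the group means (correlation 0.518 on average over 15 pairs, lowest 0.116, 119 arms), and the number marks the time course. No libraries were alike within sampling noise (lowest chi-square per degree of freedom 60.2).

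Named arms were the 20 with the highest and the 5 with the lowest mean share, the 10 with the most exact counts, the 5 with the smallest p per direction, and fixed families and lists. Members and lists were chosen with earlier results of these data known. Parents of 20 nt or more for arms, DESeq2 with the block, the median over parents, leaving out parents at hairpin ends or tags in other transcripts, and means over libraries with 100 or more counts of an arm were added after seeing the data. The edgeR step was tested on simulated data.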

Additional observations from a re-analysis of the deposited data

Results flagged for a closer look

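Each time course of 6 libraries was searched for a highest or lowest value whose distance to its neighbour passed Dixon's critical value. Of 68 such searches 6 found one, where chance gives about 3.4. The pooled G-added share was 0.756% in 6h-1 and 0.380% to 0.487% in the other libraries of the first time course. The A-added share of miR-134-5p was 55.6% in 6h-2, from 117 counts, and 32.5% to 35.9% in the others of the second. That of miR-330-5p was 13.8% in 6h-2, from 29 counts, against 36.1% to 44.6%. That of miR-329-5p was 45.5% in 6h-2, from 11 counts, against 8.64% to 21.9%. For miR-195a-5p it was 42.9% in 6h-1, from 7 counts, against 0 to 11.9%. For miR-541-5p it was 66.8% in 3h-1, from 4090 counts, against 1.42% to 10.2%.

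Some arms moved one way after ECS in all 5 libraries of one time course and the other way in all 5 of the other. Each of these differences was not tested. The 5 libraries of a time course share 1 untreated reference, NT-1 or NT-2, so they are not 5 separate observations of a change. In NT-1, 51.3% of the exact counts were tags of 18 or 19 nt. The difference, ECS minus untreated, in the first minus that in the second time course was 18.4 points for miR-125b-3p and 10.7 points for miR-186-5p. Both were higher after ECS in the first and lower in the second. The same value was -55.4 points for miR-490-3p, which had 10 counts in NT-1 and as few as 3 in another library. For miR-1839-5p it was -5.61 points, and both arms were lower after ECS in the first and higher in the second.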

How the results depend on the processing

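The mean A-added share, 3.44%, was 4.19% with ends not followed by A and 2.83% with parents of 20 nt or more. With 1 library left out it was 3.27% to 3.60%. The excess of A over C and G kept its direction and side of the threshold under each alternative run. The difference between A and U, -0.0806 points, was -2.76 with ends not followed by the same base, 1.31 with parents of 20 nt or more, 0.413 as the median over arms, 0.325 as the median over parents, and -0.245 to 0.264 with 1 library left out. The difference between time courses, 0.284 points, was -0.497 with ends not followed by A, 1.08 with parents of 20 nt or more, 0.548 as the median over arms, 0.939 as the median over parents and -0.152 to 0.666 with 1 library left out. The difference between 3′ and 5′ arms, 0.970 points, was 2.33 with ends not followed by A, 1.05 with tags of 1 arm, 0.998 with 10000 or more exact counts, -0.0976 as the median over arms, 0.726 as the median over parents, and 0.774 to 1.14 with 1 library left out. ECS minus untreated, 1.38 points, was 0.749 to 2.01, lowest without NT-1 and highest without NT-2. The causes were not tested. Between the time courses 28 to 47 arms were called with 1 library left out, 41 with DESeq2, 48 with TMM factors and 69 with parents of 20 nt or more; miR-433-3p then had a log2 ratio of 0.0437. After ECS the count was 0 at each time, with the replicate block too, except for 1 arm at 3 h without the filter, miR-1934-3p, which had 11 A-added counts in all. The block itself changed no call after ECS. The fit between time courses has a term for each time point, so leaving out 1 library of a time also removes what its partner adds. Hairpins extended by 20 bases of genome were not run. Libraries with few counts of an arm give shares of low precision, and a single 3′ base cannot be told apart from a sequencing error in one read.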

Other observations

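Tags with 2 added bases followed the same rule with the last 2 bases removed. UG made up 19.5% and AA 16.9% of them. AA tags were 0.485% ± 0.149 of counts in the first time course and 0.756% ± 0.280 in the second (SD, n = 6).

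In 3h-1, 4 A-added tags were far more frequent than in any other library. They are shown with the seed and the added A in capitals.
miR-541-5p: aAGGGATTctgatgttggtA
miR-298-5p: gGCAGAGGagggctgttcA
miR-152-3p: tCAGTGCAtgacagaacttgA
miR-341-3p: tCGGTCGAtcggtcggtcggA
The tag of miR-541-5p had 2721 counts there, 66.5% of its arm, against at most 8.95% in another library. That of miR-298-5p had 2343 counts (19.03% against 2.13%), that of miR-152-3p 687 (15.9% against 1.96%) and that of miR-341-3p 354 (7.19% against 0.577%). They were chosen after their values were seen.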
